A study of Mus musculus with 9 samples.

Results

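Genes for the lipid enzymes and cytoplasmic proteins of oligodendrocytes, the cells that make myelin in the central nervous system, were followed in mouse spinal cord with and without experimental autoimmune encephalomyelitis (EAE), an immune attack on myelin used as a model of multiple sclerosis. The group held 8 genes, named by symbol: Ugt8a, Gal3st1, Car2, Gsn, Trf, Septin4, Qdpr and Enpp2. They were chosen by symbol and partly selected on their lower signals in EAE on these same arrays, so their levels in EAE against naive cord are given as a description, with no test. Of the 8 genes, 5 had an annotated probe set (Ugt8a, Car2, Gsn, Septin4 and Qdpr), and Gal3st1, Trf and Enpp2 were not analysed here. These 5 genes had 6 probe sets of 12488 on the array, and all 6 passed the filter on dim signals, being above the signal floor on all 9 arrays.

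The samples were 3 spinal cord RNA samples from calcitriol-treated EAE in B10.PL mice (replicates 6, 7 and 8; dose 200 ng), 3 from placebo-treated EAE in the same strain (replicates 1, 5 and 10), and 3 from naive B10.PL mice (replicates 2, 3 and 4). Calcitriol is the active vitamin D hormone, and both EAE groups were collected 6 h after treatment. Total RNA of each was hybridised to 1 one-colour array. The labels give no age, no way of inducing EAE, no disease score and no placebo for the naive mice, so EAE and placebo treatment cannot be told apart in the comparisons with naive cord. For calcitriol replicate 6 the title says D2 hormone and the description D3. Nothing says that replicates are separate animals, so errors and p-values reflect sample-to-sample spread that may be only technical.

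Oligodendrocytes wrap axons in membrane that is rich in galactolipids. Ugt8a encodes the ceramide galactosyltransferase that makes galactosylceramide, and Gal3st1 the sulfotransferase that turns it into sulfatide. Car2 (carbonic anhydrase 2), Gsn (gelsolin, which cuts and caps actin filaments), Septin4 (a filament-forming GTP-binding protein) and Qdpr (dihydropteridine reductase, which regenerates tetrahydrobiopterin) are cytoplasmic proteins found in these cells. Trf (transferrin, the iron carrier) and Enpp2 (autotaxin, which makes lysophosphatidic acid) are secreted by them. Several of them are also made by other cells: Car2 by red cell precursors, Gsn by macrophages and fibroblasts, and Qdpr by neurons and liver.

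The sequences around start sites are shown for 3 of these genes. RefSeq windows on GRCm38.p6, from 250 bases before to 50 bases after a start site, were at hand for 5 of the 8 genes (Ugt8a, Gal3st1, Gsn, Septin4 and Qdpr), 12 windows in all. Ugt8a and Qdpr had 1 window each, and of the 4 Septin4 windows the one shown is the only window of a measured gene with a SOX family core. The array does not tell which start site a transcript used. Capitals mark matches, on either strand, to the SOX cores ACAAAG and ACAATG, the Myrf core CTGGCAC, the E box CAGCTG, the CCAAT box CCAAT and the GC box GGGCGG. The Ugt8a window lies at chr3:125938603-125938902 (minus strand), the Qdpr window at chr5:45450180-45450479 (minus strand) and the Septin4 window at chr11:87580811-87581110 (plus strand), each written 5′ to 3′.
Ugt8a: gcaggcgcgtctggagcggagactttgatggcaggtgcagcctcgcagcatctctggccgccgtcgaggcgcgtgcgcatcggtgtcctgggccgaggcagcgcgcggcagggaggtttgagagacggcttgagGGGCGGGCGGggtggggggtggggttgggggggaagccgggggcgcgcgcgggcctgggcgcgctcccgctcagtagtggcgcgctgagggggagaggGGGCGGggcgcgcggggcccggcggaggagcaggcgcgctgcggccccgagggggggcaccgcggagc
Qdpr: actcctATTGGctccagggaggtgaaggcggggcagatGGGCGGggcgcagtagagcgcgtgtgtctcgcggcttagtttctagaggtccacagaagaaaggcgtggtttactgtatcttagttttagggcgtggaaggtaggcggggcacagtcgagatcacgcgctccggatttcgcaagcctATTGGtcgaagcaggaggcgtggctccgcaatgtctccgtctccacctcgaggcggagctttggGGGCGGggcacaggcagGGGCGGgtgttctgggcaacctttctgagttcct
Septin4: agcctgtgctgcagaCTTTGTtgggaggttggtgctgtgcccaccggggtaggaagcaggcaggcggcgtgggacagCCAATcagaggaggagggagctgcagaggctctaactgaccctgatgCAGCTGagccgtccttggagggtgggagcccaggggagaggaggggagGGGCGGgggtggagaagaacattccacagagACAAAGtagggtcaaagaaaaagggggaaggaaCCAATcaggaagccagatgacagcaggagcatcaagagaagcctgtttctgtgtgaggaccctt
The Ugt8a window held 3 GC boxes, 2 of which overlap each other, and no other motif searched. The Qdpr window held 3 GC boxes and 2 CCAAT boxes. The Septin4 window held 2 copies of ACAAAG, 1 E box, 2 CCAAT boxes and 1 GC box. Of 32851 mouse windows of 300 bases, 35.7% held GGGCGG, 37.4% CCAAT, 18.7% ACAAAG, 12.6% ACAATG, 16.3% CAGCTG and 5.01% CTGGCAC. No window of these genes held the Myrf core, and ACAATG was found only in Gal3st1 windows. A match is a run of letters in the window and was not tested as a binding site.

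Signals below are linear, scaled to a common mean of 192.8 units per array with a floor of 19.3 units, and errors of group means are SDs (n = 3). All 5 genes had their lowest levels on EAE arrays, and for each of them every one of the 6 EAE arrays lay below every naive array. Ugt8a signals were 83.3, 102 and 140 units on calcitriol replicates 6, 7 and 8, 66.4, 89.6 and 103 on placebo replicates 1, 5 and 10, and 468, 225 and 177 on naive replicates 2, 3 and 4. The enzyme's transcript was thus lower on each EAE array than on each naive array, and the calcitriol and placebo arrays overlapped. Its means were 108 ± 28.7 units with calcitriol, 86.4 ± 18.7 with placebo and 290 ± 156 in naive cord.

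Car2, whose product interconverts carbon dioxide and bicarbonate, had 281, 301 and 378 units on calcitriol replicates 6, 7 and 8, 427, 368 and 461 on placebo replicates 1, 5 and 10, and 1285, 803 and 577 on naive replicates 2, 3 and 4. Here too calcitriol and placebo arrays overlapped, at calcitriol replicate 8 and placebo replicate 5, and the naive arrays stood above both. Its means were 320 ± 51.2 units with calcitriol, 419 ± 47.2 with placebo and 888 ± 362 in naive cord. Gsn had 175, 180 and 207 units on calcitriol replicates 6, 7 and 8, 198, 234 and 246 on placebo replicates 1, 5 and 10, and 396, 357 and 309 on naive replicates 2, 3 and 4. Its means were 187 ± 17.1 units with calcitriol, 226 ± 24.9 with placebo and 354 ± 43.4 in naive cord, with calcitriol and placebo arrays overlapping. Gsn was the steadiest of the 5 genes in naive cord, where its highest array was 1.28 times its lowest. For the other 4 genes that ratio was between 1.76 (Septin4) and 2.96 (Qdpr).

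Septin4 was read by 2 probe sets. The brighter one, which stands for the gene here, had 117, 159 and 151 units on calcitriol replicates 6, 7 and 8, 187, 168 and 169 on placebo replicates 1, 5 and 10, and 594, 397 and 337 on naive replicates 2, 3 and 4. Its means were 142 ± 21.9 units with calcitriol, 175 ± 10.8 with placebo and 443 ± 134 in naive cord. The 3 groups did not overlap, with calcitriol lowest and naive highest. The gap was also the widest of the 5 genes: the lowest naive array was 1.80 times the highest EAE array, against 1.25 to 1.27 times for the other 4. The dimmer one, whose name carries the suffix that marks probes shared with similar sequences, did not separate the groups. It had 66.5 to 73.8 units with calcitriol, 52.1 to 86.7 with placebo and 48.4 to 128 in naive cord. The lower Septin4 level in EAE therefore rests on 1 of its 2 probe sets.

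Qdpr, which keeps the cofactor of the aromatic amino acid hydroxylases and of nitric oxide synthases in its reduced form, had 301, 456 and 269 units on calcitriol replicates 6, 7 and 8, 448, 333 and 439 on placebo replicates 1, 5 and 10, and 1712, 855 and 578 on naive replicates 2, 3 and 4. It varied most in naive cord, and the calcitriol and placebo arrays overlapped. Its means were 342 ± 99.8 units with calcitriol, 407 ± 64.1 with placebo and 1049 ± 591 in naive cord.

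**Figure D1:**
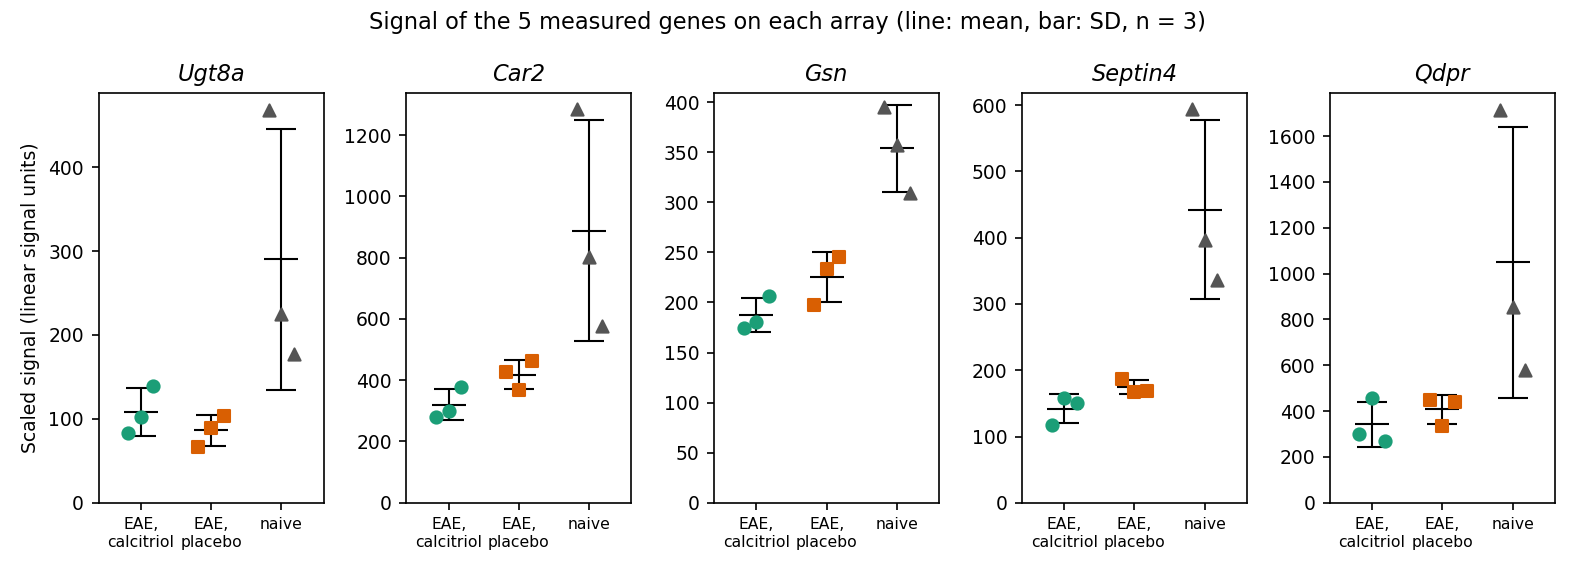
Scaled signal (linear units, vertical axis from 0) of the 5 measured genes on each array, in EAE with calcitriol, EAE with placebo and naive cord. Points are arrays, in order of replicate number from left to right within a group, lines are means and bars SDs of 3 arrays; every EAE point lies below every naive point of the same gene, and naive replicate 2 is the highest point in each panel.

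Placebo-treated EAE was set against naive cord to give the size of the difference between them. The falls in EAE that helped choose the genes were seen in this contrast, so no test is given. On the log2 scale the placebo minus naive difference was -1.64 ± 0.36 (SE of the linear model, n = 3 per group) for Ugt8a, -1.30 ± 0.22 for Septin4, -1.23 ± 0.36 for Qdpr, -1.01 ± 0.26 for Car2 and -0.65 ± 0.16 for Gsn. In linear terms Ugt8a was 3.12-fold lower, Septin4 2.46-fold, Qdpr 2.35-fold, Car2 2.02-fold and Gsn 1.57-fold lower. All 5 genes had no overlap between placebo and naive arrays, where 7.13% of the 12177 probe sets tested were lower and 7.39% higher in placebo without overlap. Across the array 0.936% of probe sets passed limma at an adjusted p of 0.05 (0.887% higher, 0.0493% lower), from which nothing is read for these genes. The median difference of the 5 genes was -1.23, and that of all probe sets tested was -0.02. Only 16 probe sets had a lower difference than Ugt8a, 52 a lower one than Septin4 and 642 a lower one than Gsn; these ranks describe how the genes were picked. In whole cord, fewer cells of a type and less RNA per cell cannot be told apart.

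Calcitriol-treated EAE against naive cord shares the naive arrays with that contrast and is described in the same way. The calcitriol minus naive difference was -1.61 ± 0.22 log2 (SE) for Septin4, -1.51 ± 0.36 for Qdpr, -1.41 ± 0.26 for Car2, -1.33 ± 0.36 for Ugt8a and -0.92 ± 0.16 for Gsn. Septin4 was 3.05-fold, Qdpr 2.84-fold, Car2 2.65-fold, Ugt8a 2.51-fold and Gsn 1.89-fold lower. Again all 5 genes had no overlap, where 7.69% of probe sets tested were lower and 8.45% higher with calcitriol than in naive cord without overlap. In that comparison 2.00% passed limma (1.68% higher, 0.320% lower). The share of probe sets with all 6 EAE arrays below all naive arrays was 3.76%. Ugt8a had the lowest of the 5 differences with placebo and Septin4 with calcitriol, and their 95% intervals against naive overlapped in both groups, as -2.46 to -0.82 and -1.79 to -0.80 with placebo, and -2.14 to -0.51 and -2.10 to -1.11 with calcitriol.

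The differences from naive cord were smaller without 1 naive array. Naive replicate 2 was the highest and naive replicate 4 the lowest naive array for all 5 genes, with replicate 3 between them. That order held in 22.4% of all probe sets tested and in 31.9% of the 458 with all EAE arrays below all naive arrays. Relative to the naive mean, the median of the 5 genes was 0.61, -0.11 and -0.54 log2 on naive replicates 2, 3 and 4. On the calcitriol arrays (6, 7, 8) it was -1.65, -1.38 and -1.16 log2, and on the placebo arrays (1, 5, 10) -1.08, -1.36 and -1.11 log2. Leaving out naive replicate 2 cannot bring in overlap where there was none, so only the sizes of the differences without it are given. The placebo minus naive difference was then -1.23 log2 for Ugt8a, -1.07 for Septin4, -0.80 for Qdpr, -0.71 for Car2 and -0.56 for Gsn. The calcitriol minus naive difference was then -1.37 for Septin4, -1.10 for Car2, -1.08 for Qdpr, -0.92 for Ugt8a and -0.83 for Gsn.

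**Figure D2:**
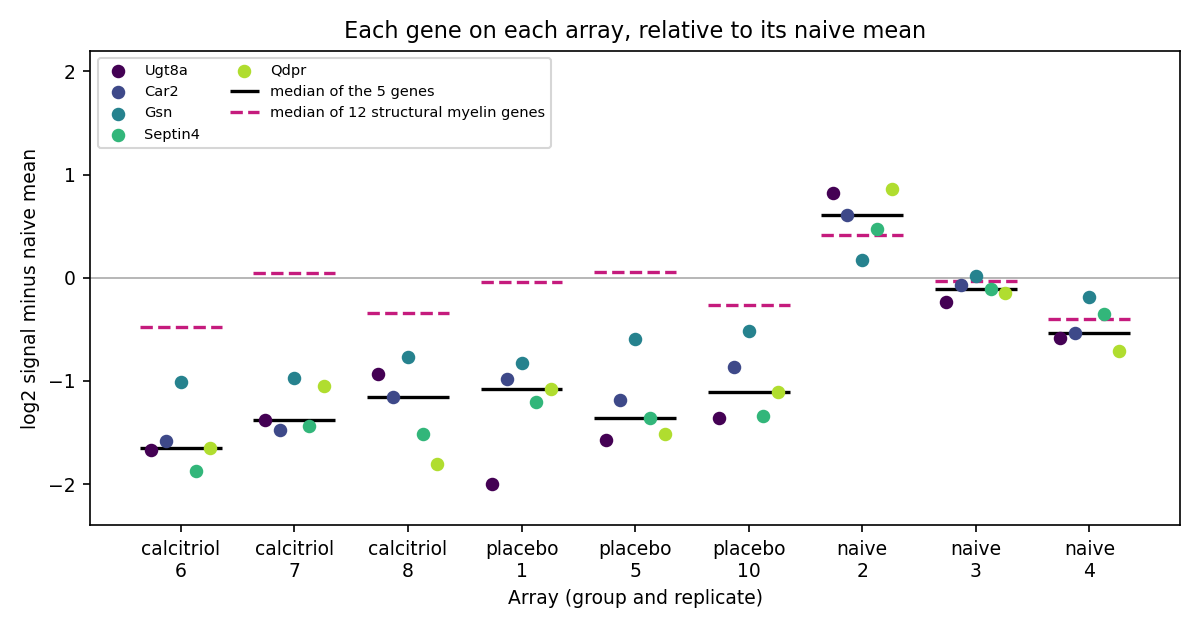
Log2 signal minus the naive mean of the same gene (vertical axis) on each of the 9 arrays (horizontal axis, group and replicate). Points are the 5 genes, solid lines their median and dashed lines the median of 12 structural myelin genes; the solid lines lie between -1.65 and -1.08 on EAE arrays and between -0.54 and 0.61 on naive arrays, while the dashed lines of EAE and naive arrays overlap.

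Calcitriol was compared with placebo in EAE to see what the hormone changed within 6 h. This contrast did not choose the genes, but it shares the placebo arrays with the one that did. Ugt8a was 1.25-fold higher with calcitriol, and the other 4 genes were 1.20-fold to 1.31-fold lower. The calcitriol minus placebo difference was 0.32 ± 0.36 log2 (SE) for Ugt8a, -0.39 ± 0.26 for Car2, -0.31 ± 0.22 for Septin4, -0.28 ± 0.36 for Qdpr and -0.27 ± 0.16 for Gsn. None of the 5 passed, with a limma adjusted p of 1.00 for each (Benjamini-Hochberg over 12177 probe sets) and unadjusted limma p-values from 0.123 (Gsn) to 0.460 (Qdpr). No probe set of the whole array passed in limma at an adjusted p of 0.05 (0% called), while 314 had an unadjusted p under 0.05. The sizes depended on single arrays: leaving out calcitriol replicate 8 put Ugt8a at 0.12 log2, leaving out placebo replicate 1 put it at 0.14, and leaving out calcitriol replicate 6 at 0.49. Qdpr stood at -0.12 without calcitriol replicate 8 and -0.50 without calcitriol replicate 7, and Septin4 at -0.18 without calcitriol replicate 6. The other Septin4 probe set gave -0.02 ± 0.37. Septin4 was the only one of the 5 whose calcitriol arrays all lay below the placebo arrays, and 5.17% of probe sets tested did so, against 4.82% that were higher without overlap.

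The intervals state what these arrays could not tell apart. The 95% interval of the calcitriol minus placebo difference ran from -0.50 to 1.13 log2 for Ugt8a. It ran from -0.98 to 0.20 log2 for Car2, from -0.80 to 0.19 for Septin4, from -1.08 to 0.53 for Qdpr and from -0.62 to 0.09 for Gsn. A 2-fold rise with calcitriol thus lay outside the interval of Car2, Septin4, Qdpr and Gsn and inside that of Ugt8a. Such a rise is not the same as a return to naive levels, since placebo was 3.12-fold lower than naive for Ugt8a and 1.57-fold for Gsn. A 2-fold further fall lay inside the interval of Qdpr alone.

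**Figure D3:**
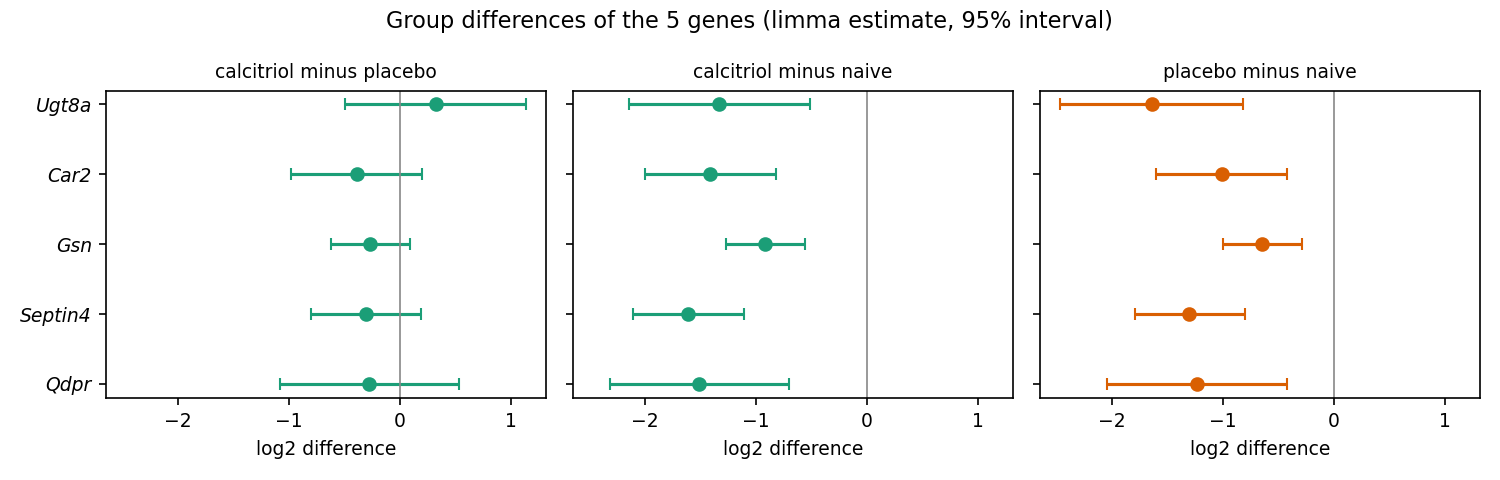
Log2 differences (horizontal axis) of the 5 genes in calcitriol minus placebo, calcitriol minus naive and placebo minus naive, with 95% intervals from the linear model as bars. All 5 intervals cross 0 between calcitriol and placebo; the other panels show the comparisons that chose the genes or share arrays with them.

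The 5 genes followed each other from array to array. Pearson correlations of log2 signal over the 9 arrays ran from 0.85 to 0.97 over the 10 pairs, with a median of 0.91, and from 0.60 to 0.95 without naive replicate 2. All 9 points share arrays and scaling, and the group difference that picked the genes is part of these values. For deviations from the group means the 10 correlations ran from 0.38 (Gsn and Qdpr) to 0.91 (Ugt8a and Gsn), with a median of 0.78. The order of the naive arrays, shared by all 5 genes, is part of these values. On calcitriol replicates 6, 7 and 8 the order differed between genes. Ugt8a had 83.3, 102 and 140 units there and Qdpr 301, 456 and 269. Car2 and Gsn had the same order as Ugt8a, and Septin4 was highest on replicate 7. Car2 and Septin4 were the closest pair over the 9 arrays (0.97): each was the third closest gene to the other among 5835 genes bright enough to compare. Among the genes closest to Ugt8a the other 4 stood at ranks 22 (Car2) to 70 (Qdpr), and among those closest to Qdpr at ranks 33 (Septin4) to 215 (Ugt8a).

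Of the 3 genes most like each of the 5 over the 9 arrays, none was on the list of structural myelin genes. Ugt8a was closest to Sdha, a subunit of mitochondrial complex II (r = 0.97), then to Sypl (0.95) and to Ndufa10, a subunit of complex I (0.95). Car2 was closest to Pltp, the phospholipid transfer protein (0.99), and to Coro2b (0.97), and Gsn to Ndrg3 (0.97), Pltp (0.96) and the RNA helicase Ddx3x (0.95). Septin4 was closest to Id4, an inhibitor of helix-loop-helix transcription factors that holds back oligodendrocyte differentiation (0.97), and to Fez1, an axonal transport adaptor (0.97). Qdpr was closest to Cpox, an enzyme of heme synthesis (0.98), Stmn1, which destabilises microtubules (0.98), and Sparcl1, a matrix protein of astrocytes (0.97). These correlations describe 9 arrays and carry no test.

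Structural myelin genes, the nearest comparison within the same cells, did not all follow. Of 12 measured, 9 were above the floor on all arrays, so myelin transcripts were present in every group. Against naive cord, 3 were lower in placebo without overlap: Mog, a myelin surface antigen (-1.33 ± 0.30 log2, SE), Mal, a raft protein of myelin (-1.23 ± 0.33), and Mag, the myelin-associated glycoprotein (-0.65 ± 0.20). Of all probe sets tested 7.13% were lower without overlap in that comparison. Mog had 50.9, 73.1 and 39.3 units on calcitriol replicates 6, 7 and 8, 73.6, 55.5 and 102 on placebo replicates 1, 5 and 10, and 193, 174 and 197 on naive replicates 2, 3 and 4. Every EAE array lay below every naive array for Mog too, and naive replicate 4 was its highest naive array, where it was the lowest for each of the 5 genes. None of Mog, Mal and Mag passed limma against naive with placebo (adjusted p = 0.106, 0.191 and 0.279), and Mog fell with calcitriol against naive (-1.83 ± 0.30 log2, limma adjusted p = 0.0158). Of all probe sets tested 0.320% passed as lower with calcitriol against naive.

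The other 9 myelin genes spread on both sides of 0 in placebo against naive. Gpm6b, a membrane proteolipid, stood at -0.60 ± 0.60 log2 and Ndrg1 at -0.40 ± 0.20, and with calcitriol against naive they stood at -1.01 ± 0.60 and -0.53 ± 0.20. Cldn11, the tight junction claudin of myelin, stood at -0.02 ± 0.29 log2 and Cnp, the cyclic nucleotide phosphodiesterase of myelin, at -0.15 ± 0.35 in placebo against naive, with Cnp signals of 11.4 to 39.5 units, near or under the floor. Cd9, a tetraspanin also made by many leukocytes, was the 1 gene of the 12 that passed limma in placebo against naive (2.10 ± 0.26 log2, limma adjusted p = 0.00828). Pmp22 was also higher in placebo without overlap (0.90 ± 0.43 log2, limma adjusted p = 0.588), and its other probe set had the opposite sign. Of all probe sets tested 0.936% passed limma in placebo against naive and 7.39% were higher without overlap. Mobp stood at 0.37 ± 0.35 log2, with overlap. Mbp, myelin basic protein, was listed at exactly 0 on naive replicate 2 and at 2319 and 1772 units on naive replicates 3 and 4, and Gjb1, the gap junction protein connexin 32, was listed at 0 on naive replicate 4. With exact zeros as missing, the placebo minus naive difference of Mbp was -0.38 log2 in place of 1.86, and that of Gjb1 -0.30 in place of 0.89. The median of the 12 genes was -0.08 log2 in placebo and -0.11 with calcitriol against naive, and -0.34 and -0.57 with exact zeros as missing. The median of the 5 genes was -1.23 and -1.41 in the same comparisons, with or without exact zeros. The 5 genes were picked partly for their falls, so the gap between the medians was not tested.

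**Figure D4:**
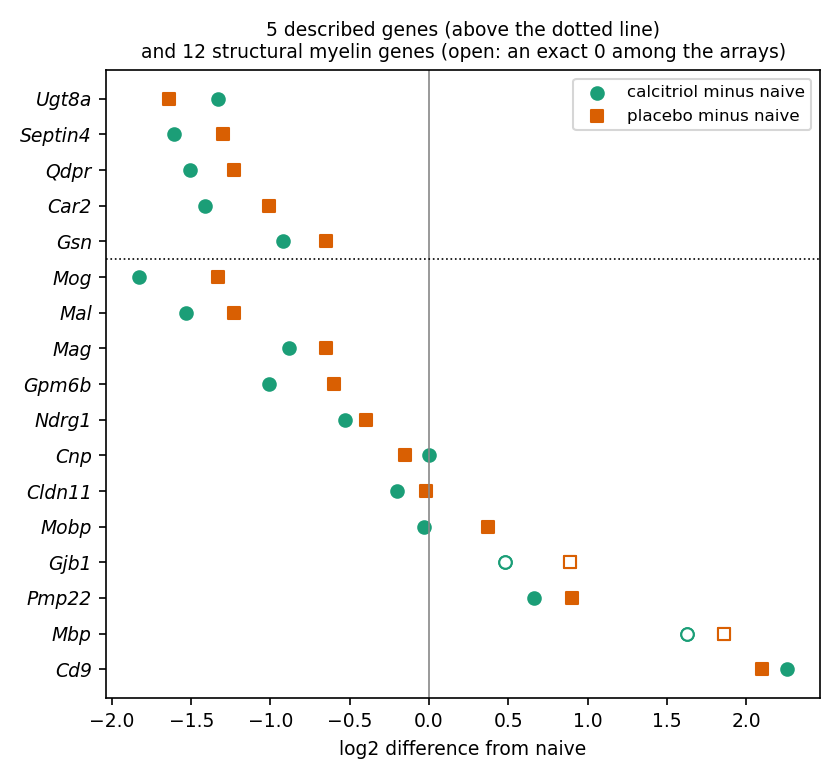
Log2 difference from naive cord (horizontal axis) of the 5 genes, above the dotted line, and of 12 structural myelin genes, below it, for calcitriol (circles) and placebo (squares). Open symbols mark Mbp and Gjb1, each with an exact 0 on a naive array; the 5 genes all lie left of -0.6, while the myelin genes spread from -1.83 to 2.26.

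Regulators of the lineage gave 1 call against naive cord, where 0.936% of all probe sets passed with placebo and 2.00% with calcitriol. Of 11 measured transcription factors and progenitor genes, 0 passed limma in placebo against naive, and their median was -0.03 log2, against -0.02 over all probe sets. Sox10, which oligodendrocytes need to mature, stood at -0.26 ± 0.17 log2 (SE) in placebo and at -0.59 ± 0.17 with calcitriol against naive, where its arrays did not overlap but it did not pass (limma adjusted p = 0.141). Myrf, the myelin regulatory factor, stood at 0.15 ± 0.13 in placebo and 0.05 ± 0.13 with calcitriol against naive. Id4 stood at -0.58 ± 0.15 in placebo against naive and fell with calcitriol against naive (-0.81 ± 0.15 log2, limma adjusted p = 0.0269).

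Other genes of the pathways around the 5 genes were looked at in the same comparisons. Of 19 enzymes of galactolipid and sphingolipid metabolism, 0 passed in placebo against naive and 0 with calcitriol against naive, with medians of -0.03 and -0.04 log2. Of all probe sets tested 0.936% and 2.00% passed in these comparisons, so nothing is read from a count of 0. Galc, which degrades galactosylceramide, stood at -0.66 ± 0.30 log2 in placebo against naive, with no overlap of arrays. The lysosomal enzymes Hexa (0.43 ± 0.18), Asah1 (0.42 ± 0.20) and Glb1 (0.58 ± 0.27) were higher in placebo without overlap and did not pass, and other probe sets of Hexa and Glb1 had the opposite sign. The placebo minus naive differences of the 19 genes ran from -0.66 to 0.58 log2.

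Relatives of the other genes gave no call, where 0.936% of all probe sets passed in placebo and 2.00% with calcitriol against naive. Of 8 other carbonic anhydrases, 6 gelsolin relatives and 7 other septins, 0 passed in any of the 3 comparisons, and their medians in placebo against naive were 0.01, 0.00 and 0.06 log2. Septin6, another filament subunit, stood at -0.81 ± 0.23 log2 in placebo against naive and -0.92 ± 0.23 with calcitriol, with no overlap in either. Car5a, the mitochondrial carbonic anhydrase, stood at -0.85 ± 0.24 in placebo and -0.73 ± 0.24 with calcitriol against naive, also with no overlap in either (limma adjusted p = 0.208 and 0.217). Car14, a membrane-bound carbonic anhydrase, stood at -0.44 ± 0.22 and -0.84 ± 0.22, with overlap in placebo alone. Of 10 genes of tetrahydrobiopterin synthesis, recycling and use, 0 passed in placebo against naive. There Pts stood at -0.44 ± 0.24, Spr at -0.50 ± 0.36 and Pcbd1 at -0.53 ± 0.43 log2, all of them enzymes of the cofactor's synthesis or recycling, and Gch1, the first enzyme, at 0.17 ± 0.25.

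Trf and Enpp2 had no values here, but genes that act with them were measured. Across the array 0.936% of probe sets passed in placebo and 2.00% with calcitriol against naive. Of 14 iron-handling genes, 1 rose in placebo against naive, Lcn2, which binds bacterial iron carriers (2.01 ± 0.26 log2, limma adjusted p = 0.0104). In that comparison 6 of the 14 were higher and 1 lower without overlap, against 7.39% and 7.13% of all probe sets tested. With calcitriol against naive 2 of the 14 rose, Lcn2 (2.15 ± 0.26, limma adjusted p = 0.00401) and Slc11a1, a metal transporter of phagocytes (0.94 ± 0.17, limma adjusted p = 0.0204). Tfrc, the transferrin receptor, had 48.0, 101 and 75.6 units on calcitriol arrays, 47.3, 77.6 and 49.6 on placebo arrays and 176, 93.7 and 102.5 on naive arrays. Its placebo arrays lay below its naive arrays (-1.07 ± 0.37 log2, limma adjusted p = 0.350), its calcitriol arrays overlapped them, and its other probe set had the opposite sign. Of 5 genes of lysophosphatidic acid signalling, 0 passed in placebo against naive and 1 fell with calcitriol against naive, Lpar1, the receptor carried by oligodendrocytes (-0.91 ± 0.18 log2, limma adjusted p = 0.0374). Lpar1 had 155, 193 and 132 units on calcitriol replicates 6, 7 and 8, 240, 194 and 178 on placebo replicates 1, 5 and 10, and 301, 300 and 289 on naive replicates 2, 3 and 4. In calcitriol against placebo none of the genes on these pathway lists passed limma (adjusted p = 1.00), as no probe set of the array did.

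Markers of other cells moved on the same arrays. Of 17 macrophage and microglia markers, 6 rose in placebo and 8 with calcitriol against naive. Of all probe sets tested 0.887% and 1.68% passed as higher in these comparisons. In each comparison 3 of the 17 markers had a difference under 0, down to -0.68 log2 with placebo and -1.02 with calcitriol. Fcgr3 (-0.63 ± 0.36 in placebo against naive) was lower without overlap, at signals near or under the floor. The summed signal of the 17 markers was 6558 to 9837 units with calcitriol, 5930 to 7864 with placebo and 2876 to 3042 in naive cord. C1qa, a complement subunit of these cells, rose by 1.75 ± 0.22 log2 in placebo against naive (limma adjusted p = 0.00828), and no marker of the list was at the floor on every array. The summed signal of 12 neuron markers was 5471 to 6071 units with calcitriol, 5826 to 7899 with placebo and 8257 to 15479 in naive cord, with 0 past the test in either comparison with naive. Their median differences from naive were -0.56 log2 with placebo and -0.80 with calcitriol. Without overlap 4 of the 12 were lower and 1 higher with placebo, and 8 lower and 1 higher with calcitriol. Of all probe sets tested 7.13% and 7.69% were lower without overlap in these comparisons. The sums of 10 astrocyte, 6 erythroid, 3 Schwann cell and 4 choroid plexus and ependyma markers overlapped between naive and both EAE groups, and 0 passed. Those of 11 meninges, fibroblast and vessel markers were 1681 to 2037 units with calcitriol, 1520 to 2151 with placebo and 1479 to 1649 in naive cord, also with 0 past the test. The beta-actin control gave a 5′ minus 3′ log2 difference of -0.83 to -0.52 with calcitriol, -1.11 to -0.42 with placebo and -0.25 to 0.12 in naive cord, so that all EAE arrays had less signal at the 5′ end relative to the 3′ end. Log2 signals of naive arrays correlated at 0.765 to 0.878 with each other, against 0.899 to 0.938 among calcitriol and 0.921 to 0.936 among placebo arrays. The part of these differences between arrays in the lower levels of the 5 genes was not tested.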

How the data were processed

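For 12488 probe sets on 9 arrays the authors deposited a linear intensity each; their summarising and scaling steps are not stated in the labels or file headers. Negative entries made up 1.27% to 3.53% of an array and 765 entries were exactly 0, none of either in the 6 probe sets described. Without the 66 controls, each array was brought to the same trimmed mean (192.8, leaving out 2% at each end), values under 10% of that mean (19.3) were set to it, and log2 was taken. One limma model (3.58.1, R 4.3.3, empirical Bayes, intensity trend, 6 residual degrees of freedom) took in the 9 arrays and the 12177 probe sets that exceeded the floor on 3 or more arrays and a Benjamini-Hochberg adjusted p under 0.05 counted as passing. The number of arrays limits the precision: log2 differences had a median SE of 0.29. Of all probe sets, 10855 had 1 symbol, 396 several and 1237 none. Where a gene had several probe sets, those with a plain suffix went first, then the one with the highest mean.

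The genes, gene lists and naming rule were chosen with earlier results of these data known. All 5 measured genes were named, with the 3 genes most correlated with each over 9 arrays (mean above 4 times the floor). From each list up to 4 genes with the smallest p in placebo against naive and 2 in calcitriol against placebo could be named. Cldn11, Cnp, Mbp, Gjb1, Gpm6b, Ndrg1 and Mobp fall outside that rule and were added with their values known. The fit was checked on simulated data. Promoter windows were from RefSeq (GRCm38.p6). Alternatives were no scaling, quantile normalization, floors of 5% and 20%, no filter or one on the mean, exact zeros as missing, array weights, no trend, only the groups compared, the other Septin4 probe set and leaving out each array. Python 3.11.15, pandas 2.3.3 and matplotlib 3.10.9 scanned promoters and drew the plots.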

Additional observations from a re-analysis of the deposited data

How the results depend on the processing

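All 5 genes kept the direction of their differences in all 3 comparisons under each of the 19 alternatives fitted (20 for Septin4), and none passed limma in calcitriol against placebo under any of them (adjusted p between 0.907 and 1.00). All 5 also stayed below naive without overlap in both EAE groups without scaling and under quantile normalization. The other floors, the filters, exact zeros as missing and leaving out an array could not have brought in overlap for these genes. The placebo minus naive difference ran from -1.93 to -1.23 log2 for Ugt8a, -1.48 to -1.07 for Septin4, -1.58 to -0.80 for Qdpr, -1.29 to -0.71 for Car2 and -0.74 to -0.52 for Gsn. The calcitriol minus placebo difference ran from 0.12 to 0.49 for Ugt8a, -0.52 to -0.31 for Car2, -0.36 to -0.20 for Gsn, -0.39 to -0.18 for Septin4 with its brighter probe set and -0.50 to -0.12 for Qdpr. The other Septin4 probe set gave -0.17 in placebo and -0.19 with calcitriol against naive. The number of probe sets of the whole array past the threshold depended more on the settings, and the cause was not tested. In placebo against naive it was 114, with 639 under array weights, 61 with only the groups compared and 20 (without placebo replicate 5) to 176 (without naive replicate 2) when 1 array was left out. It was also over 1.5 times lower, at 34 without placebo replicate 1, 46 without naive replicate 3, 49 without naive replicate 4 and 75 without calcitriol replicate 6. In calcitriol against naive it was 244, with 1014 under array weights, 118 with only the groups compared and 75 (without calcitriol replicate 8) to 392 (without naive replicate 2) with 1 array left out. It was 115 without naive replicate 3 and 130 without calcitriol replicate 6. In calcitriol against placebo it was 0, and 0 to 1 with 1 array left out (1 without calcitriol replicate 6 and 1 without calcitriol replicate 7). No scaling moved the median placebo minus naive difference of all probe sets to 0.11 log2, from -0.02. No paired analysis was possible because the groups share no replicate number. With 3 arrays per group, the intervals given state the precision of each calcitriol minus placebo difference, not the smallest difference that could pass. Unlike the adjusted p, they are not adjusted for the number of probe sets tested. In that comparison 314 probe sets had an unadjusted limma p under 0.05 and none passed.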
